A study of Mus musculus with 12 samples.

Results

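The 9 genes of adipokine signalling studied here were followed across 12 expression arrays. They were listed by symbol and found in the array's probe annotation by a rule that uses no signal value, although the list was drawn up with earlier results of these data known. They are 9 of the 19938 genes that the array reads through a probe set with exactly 1 gene. Adipoq, Retn, Lep, Rbp4, Nampt and Apln encode secreted proteins. Adipor1, Adipor2 and Lepr encode receptors. Each gene had 1 such probe set, so no choice between probe sets was needed.

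Adipokines are proteins that fat tissue releases into the blood or to neighbouring cells. Adiponectin (Adipoq) is made almost exclusively by adipocytes, circulates as multimers and acts through the seven-transmembrane receptors AdipoR1 and AdipoR2, which signal to AMP-activated kinase and PPAR-alpha. Leptin (Lep) reports the size of the fat stores to the brain through the cytokine-type leptin receptor (Lepr), which signals through Jak2 and Stat3. Resistin (Retn) is released by mouse adipocytes and opposes insulin action, retinol-binding protein 4 (Rbp4) carries retinol in plasma, nicotinamide phosphoribosyltransferase (Nampt, also called visfatin) is the rate-limiting enzyme of NAD salvage that is also found outside cells, and apelin (Apln) is a peptide ligand of the G-protein-coupled receptor Aplnr.

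The cells were fibroblasts of C57BL6 mouse embryos taken at embryonic day 14, either wild type (WT) or D1D2KO, which lack the triacylglycerol-synthesising acyltransferases DGAT1 and DGAT2. All were cultured in DMEM with 10% serum. Undifferentiated cells received no inducer. Differentiated cells were treated from 2 days after confluence with 1 µM dexamethasone, 500 µM isobutylmethylxanthine, 5 µg/ml insulin and 15 µM troglitazone, a PPAR-gamma agonist, for 2 to 3 days. They then received insulin and troglitazone at the same doses for 2 days, followed by plain medium until harvest. Each of the 4 groups held 3 samples, described as biological replicates. Their source embryos or cultures are not named, so the tests cover only the variation among the arrayed samples. The D1D2KO cells carry the deletion in both states, and the share of cells that became adipocytes is not given in the labels.

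Values are log2 array signals, normalized by the authors. A difference is a log2 difference between group means with the standard error (SE) of a limma fit to all 12 samples, and a gene was called when its p, adjusted over all 19938 genes (Benjamini-Hochberg), was below 0.05. Samples of 1 group correlated at 0.993 to 0.997 across genes. The targeted genes were lower in the samples labelled D1D2KO, at 39.4% (Dgat1) and 72.0% (Dgat2) of the WT signal before differentiation and 38.2% and 31.4% after it. Both also rose in differentiating D1D2KO cells, 5.31-fold and 8.38-fold. Where the probes lie relative to the deletions is not given. In differentiation 9 of 9 adipocyte markers rose in each genotype, from a mean log2 signal of 6.51 to 6.72 to one of 10.2 to 10.8 over the samples. Of 10 fibroblast markers 9 fell in WT and 10 in D1D2KO cells (mean log2 signal 10.88 to 10.94 before and 9.94 to 10.3 after). Of 11 macrophage markers 10 fell in each genotype (mean signal 9.41 to 9.55 before and 8.32 to 8.68 after). In bulk RNA, a smaller number of cells of a type and less RNA per cell cannot be told apart.

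To show the DNA in front of the genes whose signal moved most, RefSeq promoters on GRCm38.p6 are printed here, each from 250 bases before to 50 bases after the annotated start. All 9 genes were found, with 12 promoters. Both strands were searched for TTGCNNAA (a C/EBP-type site), for 2 copies of AGGTCA or AGGNCA 1 base apart (the DR1 arrangement that PPAR-gamma and RXR bind), for TGTTCT (a glucocorticoid receptor core motif) and for TATAAA. Letters in capitals mark every match. The lines give, in order, Adipoq (chr16:23146286-23146585, plus strand), Retn (chr8:3655520-3655819, plus), Lep (chr6:29059971-29060270, plus), 1 of the 2 promoters of Rbp4 (chr19:38124762-38125061, minus) and 1 of the 2 of Lepr (chr4:101717656-101717955, plus), each written 5′ to 3′ on the strand of the gene.
Adipoq: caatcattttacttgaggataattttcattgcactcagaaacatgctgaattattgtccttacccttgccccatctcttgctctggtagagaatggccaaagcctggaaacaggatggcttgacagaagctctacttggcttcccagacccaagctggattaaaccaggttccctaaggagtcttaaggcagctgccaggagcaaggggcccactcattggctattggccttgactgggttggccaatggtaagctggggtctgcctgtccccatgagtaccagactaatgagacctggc
Retn: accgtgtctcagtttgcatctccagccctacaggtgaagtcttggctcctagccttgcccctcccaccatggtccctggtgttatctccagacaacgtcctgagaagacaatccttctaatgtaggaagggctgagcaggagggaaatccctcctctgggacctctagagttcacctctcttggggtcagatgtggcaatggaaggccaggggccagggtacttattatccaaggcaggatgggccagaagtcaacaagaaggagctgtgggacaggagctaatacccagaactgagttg
Lep: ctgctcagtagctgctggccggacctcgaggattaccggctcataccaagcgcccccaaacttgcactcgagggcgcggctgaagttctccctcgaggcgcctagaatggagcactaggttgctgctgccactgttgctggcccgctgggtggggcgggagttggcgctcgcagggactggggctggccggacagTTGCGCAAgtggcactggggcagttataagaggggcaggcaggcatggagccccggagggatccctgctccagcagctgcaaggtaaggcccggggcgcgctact
Rbp4: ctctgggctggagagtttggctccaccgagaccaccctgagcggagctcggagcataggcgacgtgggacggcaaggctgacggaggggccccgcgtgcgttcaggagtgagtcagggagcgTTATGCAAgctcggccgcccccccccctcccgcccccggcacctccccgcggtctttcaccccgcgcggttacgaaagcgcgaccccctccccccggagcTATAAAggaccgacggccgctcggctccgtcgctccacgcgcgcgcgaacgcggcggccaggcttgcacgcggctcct
Lepr: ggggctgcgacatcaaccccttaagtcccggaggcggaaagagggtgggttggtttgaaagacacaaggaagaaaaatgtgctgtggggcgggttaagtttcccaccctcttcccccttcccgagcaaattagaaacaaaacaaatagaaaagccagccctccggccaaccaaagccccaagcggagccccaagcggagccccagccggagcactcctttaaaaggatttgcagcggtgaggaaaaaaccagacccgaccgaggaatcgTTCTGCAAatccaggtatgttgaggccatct

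The Lep promoter held the palindrome TTGCGCAA, which starts 55 bases before the start site (position -55). In the Rbp4 promoter a TTGCNNAA match on the opposite strand lay at -128 and TATAAA at -28. Lepr had its only match, again of the C/EBP type, 20 bases downstream of the start. TTGCNNAA occurs in 10.8% and TATAAA in 13.6% of the 32851 promoters in the table. The Adipoq and Retn windows held none of these letters, nor did the other 7 windows of the 9 genes, those of Nampt, Apln, Adipor1 and Adipor2 among them. DR1 of AGGTCA was present in 0.0396% of all promoters, DR1 of AGGNCA in 0.381% and TGTTCT in 19.0%, and in no promoter of the 9 genes. A match is a description of the letters and not a binding site, and no match says nothing of sites elsewhere.

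In both genotypes every adipokine of the group read higher in differentiated than in undifferentiated cells, Adipor2 also read higher, and Lepr read lower. Only the differentiated cells received the inducers, so direct effects of these and the change into adipocytes cannot be told apart. Of the 9 genes, 7 rose and 1 fell in WT cells, where 34.1% of all genes were called (14.7% higher and 19.4% lower). In D1D2KO cells 7 rose and 2 fell, with 36.7% of all genes called (15.4% higher and 21.2% lower). The median difference was 2.73 in WT and 3.22 in D1D2KO cells, against 0.02 and 0.01 over all genes. In both genotypes all 9 genes had no overlap between the 3 differentiated and the 3 undifferentiated samples, which was true of 43.9% of all genes in WT and 48.1% in D1D2KO cells. Where a D1D2KO and a WT comparison are set side by side below, each has its own samples, but the comparisons of genotype reuse them.

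**Figure D1:**
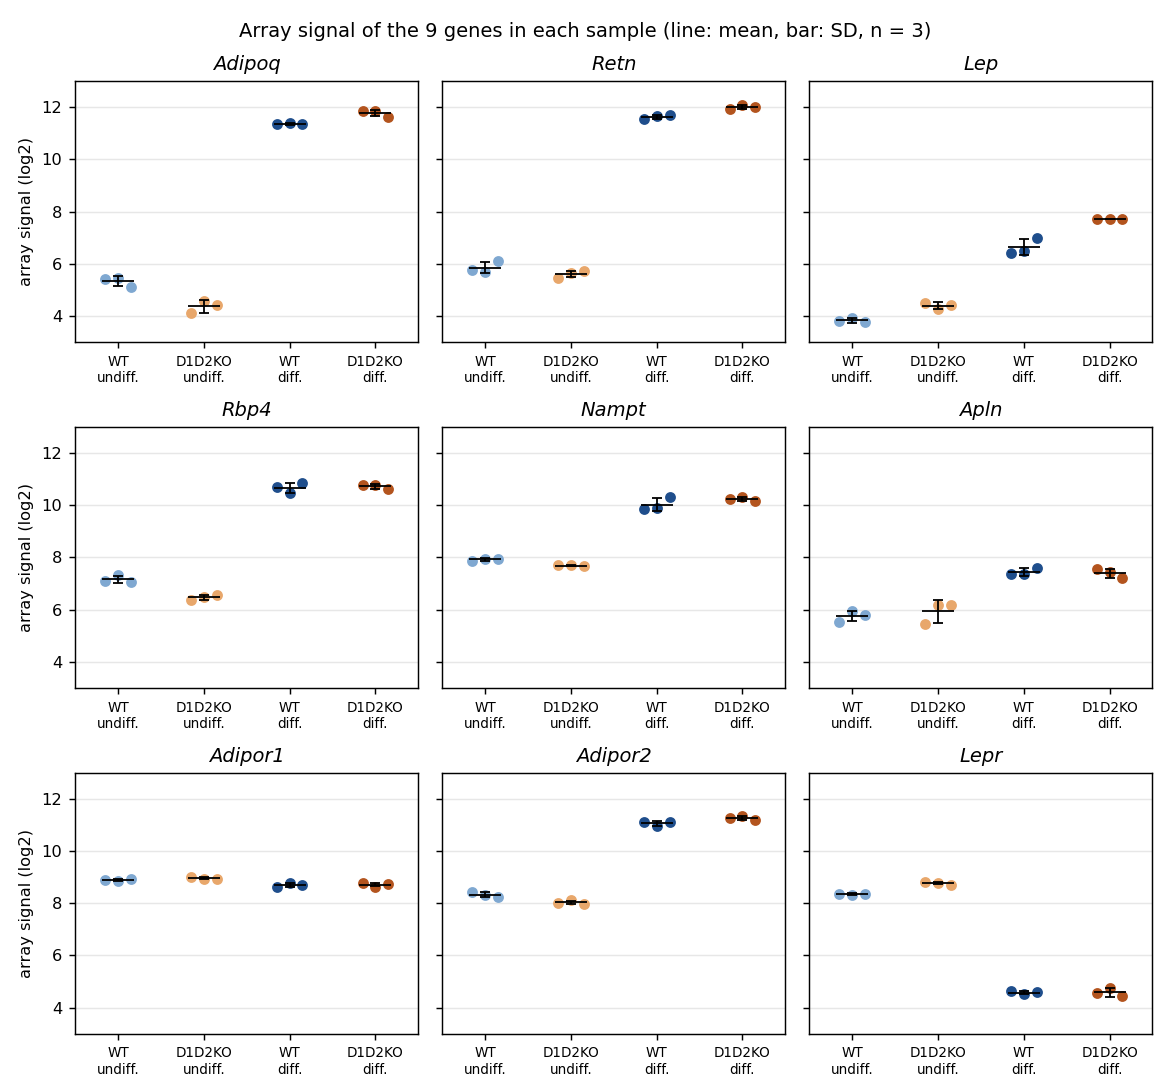
Array signal (log2, vertical axis) of the 9 genes in each of the 12 samples, as points for the 3 samples of a group, with a line at the mean and a bar of 1 SD. The secreted factors and Adipor2 are higher in all 6 differentiated samples than in all 6 undifferentiated ones, Lepr is lower in all 6, and Adipor1 stays between 8.61 and 9.001.

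Adipoq, the adiponectin gene, read 5.43, 5.46 and 5.12 in the undifferentiated WT samples and 11.34, 11.40 and 11.35 in the differentiated ones. D1D2KO samples read 4.11, 4.59 and 4.41 before and 11.85, 11.84 and 11.64 after differentiation. Undifferentiated D1D2KO cells were thus the lowest group and differentiated D1D2KO cells the highest, with no overlap between any groups. The rise was 6.03 (SE 0.12) in WT and 7.41 (SE 0.12) in D1D2KO cells (limma, adjusted p = 1.86e-15 and 1.16e-16), which placed it second by size among all genes in WT and at the top in D1D2KO cells. On the arrays the signal went from above 41.6 to 47.6% of all probe sets to above 98.7% in WT, and from 23.9 to 31.5% to 99.1 to 99.2% in D1D2KO cells. So low a start makes the size of the D1D2KO rise, nominally 170-fold, uncertain.

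Retn, which encodes resistin, read 5.77, 5.69 and 6.10 in undifferentiated WT and 5.47, 5.64 and 5.72 in undifferentiated D1D2KO samples, which overlap. After differentiation it read 11.55, 11.65 and 11.70 in WT and 11.91, 12.07 and 12.01 in D1D2KO cells, with every D1D2KO sample above every WT sample. The gain was 5.77 (SE 0.10) in WT and 6.39 (SE 0.10) in D1D2KO cells (limma, adjusted p = 1.20e-15 and 1.16e-16), rank 3 by size in each.

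Lep, the leptin gene, started at the lowest signal of its own range, with 3.81, 3.94 and 3.76 in WT and 4.52, 4.27 and 4.40 in D1D2KO cells. These values exceed only 20.1 to 22.8% and 26.4 to 30% of all probe sets, so whether they differ from background cannot be told. Differentiated WT samples read 6.40, 6.51 and 6.98, and differentiated D1D2KO samples 7.71, 7.72 and 7.72. Leptin was the only gene of the 9 for which D1D2KO cells exceeded WT cells, called and without overlap, in both states. Its rise was 2.79 (SE 0.12) in WT and 3.32 (SE 0.12) in D1D2KO cells (limma, adjusted p = 1.26e-11 and 9.21e-13). Even so, the gene ended above only 62.4 to 71.0% of probe sets in WT and 80.7 to 81.6% in D1D2KO cells.

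Rbp4 read 7.10, 7.33 and 7.04 in undifferentiated WT and 6.37, 6.48 and 6.57 in undifferentiated D1D2KO samples. Differentiated samples read 10.70, 10.46 and 10.83 in WT and 10.76, 10.78 and 10.62 in D1D2KO cells. The genotypes were therefore separate before differentiation and overlapped after it. The rise was 3.51 (SE 0.10) in WT and 4.25 (SE 0.10) in D1D2KO cells (limma, adjusted p = 1.10e-13 and 8.77e-15), or 11.4-fold and 19.0-fold.

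Nampt, the NAD-salvage enzyme, was already well up the arrays before induction, at 7.87, 7.95 and 7.93 in WT and 7.71, 7.70 and 7.65 in D1D2KO cells. It reached 9.85, 9.89 and 10.29 in differentiated WT and 10.25, 10.33 and 10.15 in differentiated D1D2KO samples. WT replicate 3 lay apart from its group and within the D1D2KO values. The rises were 2.09 (SE 0.10) and 2.55 (SE 0.10) (limma, adjusted p = 7.64e-11 and 3.79e-12).

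Apln, the apelin gene, showed the smallest rise of the secreted group in both genotypes. It read 5.53, 5.93 and 5.81 in undifferentiated WT and 5.43, 6.19 and 6.18 in undifferentiated D1D2KO cells, then 7.35, 7.36 and 7.60 in differentiated WT and 7.55, 7.42 and 7.20 in differentiated D1D2KO cells. The spread within groups, with an SD of up to 0.43, was the widest of the 9 genes. The rises of 1.68 (SE 0.17) and 1.46 (SE 0.17) were called (limma, adjusted p = 4.40e-07 and 1.70e-06).

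The adiponectin receptors differed in their response. Adipor2, the receptor linked to PPAR-alpha signalling, read 8.44, 8.31 and 8.23 in undifferentiated WT and 7.995, 8.11 and 7.99 in undifferentiated D1D2KO cells, and rose to 11.09, 10.95 and 11.12 in WT and 11.25, 11.34 and 11.17 in D1D2KO cells. The differences of 2.73 (SE 0.09) and 3.22 (SE 0.09) correspond to 6.63-fold and 9.33-fold (limma, adjusted p = 2.14e-13 and 1.78e-14). Adipor1, the receptor linked to AMP-activated kinase, moved little and downwards, from 8.89, 8.84 and 8.91 to 8.61, 8.79 and 8.70 in WT and from 9.001, 8.94 and 8.91 to 8.76, 8.63 and 8.72 in D1D2KO cells.

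The Adipor1 difference was -0.18 in WT (SE 0.08; 95% confidence interval -0.34 to -0.02; limma, adjusted p = 0.0838), which did not pass the test. In D1D2KO cells it was -0.25 (SE 0.08; adjusted p = 0.0175). The call in D1D2KO cells ended without undifferentiated replicate 1 (adjusted p = 0.0746) or differentiated replicate 2 (adjusted p = 0.0802). Without differentiated replicate 2 of WT, the WT fall passed (adjusted p = 0.0394).

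Lepr, the leptin receptor, ran opposite to its ligand. The signal was 8.37, 8.30 and 8.35 in undifferentiated WT and 8.80, 8.78 and 8.71 in undifferentiated D1D2KO cells. It dropped to 4.63, 4.52 and 4.59 in WT and to 4.57, 4.75 and 4.43 in D1D2KO cells, values that exceed only 27.8 to 33.9% of the probe sets and may be background. The differences were -3.76 (SE 0.09) and -4.18 (SE 0.09) (limma, adjusted p = 5.58e-15 and 1.10e-15), which left 7.37% and 5.53% of the undifferentiated signal. The deposited probe set carries accessions of several Lepr transcripts, so the short and long receptor forms were not separated.

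**Figure D2:**
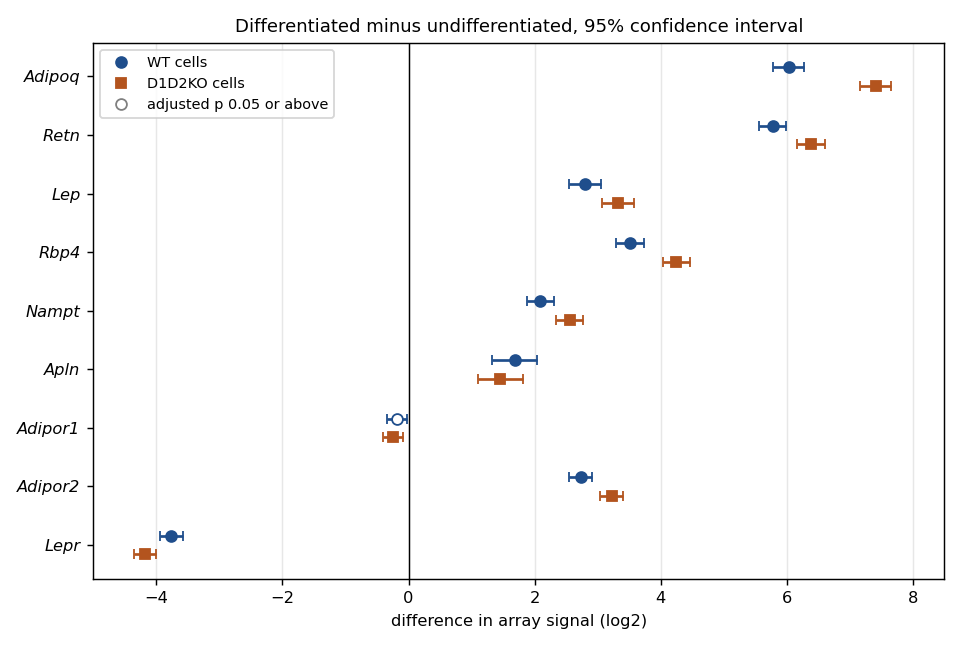
Differentiated minus undifferentiated signal (log2, horizontal axis) for each gene in WT (circles) and D1D2KO cells (squares), with 95% confidence intervals of the limma fit and open symbols where the adjusted p was 0.05 or above. Adipoq and Retn lie farthest to the right, Lepr lies near -4, and Adipor1 lies next to 0.

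Before differentiation the genotypes already differed in 5 of the 9 genes, 2 higher and 3 lower in D1D2KO cells, where 8.02% of all genes were called (4.40% higher and 3.62% lower). Over all genes 54.9% of the calls were higher, but 32.3% after centring each array on its median and 44.0% after quantile normalization. The 5 genes kept their direction under both. The count of 5 became 3 without WT undifferentiated replicate 2 or without D1D2KO undifferentiated replicate 1 or 3. Adipoq was lower by 0.97 (SE 0.12; limma, adjusted p = 8.43e-05), which is 51.2% of the WT signal, and Rbp4 was lower by 0.68 (SE 0.10; adjusted p = 0.000962), or 62.3%. Those 2 calls held under every alternative processing and without any single sample. Undifferentiated D1D2KO Adipoq exceeded only 23.9 to 31.5% of all probe sets and may be near background, so the size of its gap is uncertain.

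Markers of other cells also differed in undifferentiated cells. Of 8 muscle markers 3 were higher and 2 lower in D1D2KO cells, among them Actc1 (1.22) and the intermediate filament gene Des (-1.48). Of 9 adipocyte markers 1 was lower, the fatty acid binding protein gene Fabp4 (-1.20, SE 0.12). Summed signals of the adipocyte markers were 1537 to 1616 in WT and 1525 to 1589 in D1D2KO cells, those of the muscle markers 1432 to 1691 and 1276 to 1562, and 0 of 10 fibroblast markers passed. Their part in the result was not tested.

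Lep was higher by 0.56 (SE 0.12; limma, adjusted p = 0.0124) in undifferentiated D1D2KO cells, a call that ended without D1D2KO replicate 1 or 3 (adjusted p = 0.0581 and 0.0553). Undifferentiated Lep cannot be told from background, so the size of this gap is uncertain. Its receptor Lepr was higher by 0.42 (SE 0.09; adjusted p = 0.00861), or 134% of the WT signal, which ended without WT replicate 2 (adjusted p = 0.0529). Adipor2 was lower by 0.29 (SE 0.09; adjusted p = 0.0457). That call ended after quantile normalization (adjusted p = 0.151) and when any 1 of 7 samples was left out: WT undifferentiated replicate 1 or 2, any undifferentiated D1D2KO replicate, or differentiated D1D2KO replicate 1 or 2 (adjusted p from 0.0520 to 0.170).

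The other 4 genes did not pass the test in undifferentiated cells. Their differences were -0.25 for Retn (adjusted p = 0.137), -0.23 for Nampt (adjusted p = 0.151), 0.18 for Apln (adjusted p = 0.505) and 0.07 for Adipor1 (adjusted p = 0.560), all by limma. For Apln the 95% confidence interval ran from -0.18 to 0.53. Altogether 7 of the 9 genes had no overlap between the genotypes, against 39.3% of all genes.

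After differentiation 3 of the 9 genes were called higher in D1D2KO cells and none lower, where 13.7% of all genes were called (6.25% higher and 7.42% lower, a share of 45.7% higher that became 29.5% after centring each array). The count was 1 without WT differentiated replicate 1 or 2 or D1D2KO differentiated replicate 2. Lep differed most, by 1.09 (SE 0.12; limma, adjusted p = 2.01e-05), or 2.13-fold, and it was called under every alternative that kept it. Adipoq was higher by 0.41 (SE 0.12; adjusted p = 0.0295) and Retn by 0.37 (SE 0.10; adjusted p = 0.0297). The Adipoq call ended without any 1 differentiated WT sample or without D1D2KO replicate 1 or 2 (adjusted p from 0.0572 to 0.0840). The Retn call ended without WT replicate 1 or 2 or D1D2KO replicate 2 or 3 (adjusted p from 0.0692 to 0.0860).

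Markers of adipocytes moved with these differences. In differentiated cells 5 of 9 adipocyte markers were higher in D1D2KO cells and 0 lower, with a summed signal of 17793 to 21194 against 14843 to 17518 in WT. Of 10 fibroblast markers 5 were lower, with a summed signal of 18931 to 20940 against 24054 to 25659. The adipocyte markers averaged 10.31, 10.22 and 10.44 in WT replicates 1 to 3 and 10.77, 10.69 and 10.49 in those of D1D2KO cells. The count of 5 adipocyte markers became 1 without WT differentiated replicate 2 or D1D2KO differentiated replicate 1 and 3 without D1D2KO differentiated replicate 2. That of 5 fibroblast markers became 3 without any 1 of 10 samples, all but WT and D1D2KO differentiated replicate 3. Their part in the result was not tested. WT replicate 3, the highest of its group in the adipocyte average, was also the highest WT sample for Retn, Lep, Rbp4, Nampt, Apln and Adipor2. It was not the highest for Adipoq, Adipor1 or Lepr. In D1D2KO cells replicate 1 had the highest average, but it was the highest sample only for Adipoq, Apln and Adipor1.

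The genotype differences of the remaining 6 genes in differentiated cells did not pass the test. Nampt was at 0.23 (adjusted p = 0.140) and Adipor2 at 0.20 (adjusted p = 0.125), both by limma. Nampt passed without WT replicate 3 (0.37, adjusted p = 0.0121), and Adipor2 after quantile normalization (0.27, adjusted p = 0.0445). For Rbp4 (0.06, 95% confidence interval -0.16 to 0.28), Apln (-0.05, interval -0.40 to 0.30), Adipor1 (0.01, interval -0.16 to 0.17) and Lepr (0.01, interval -0.17 to 0.19) the estimates lay near 0 and changed sign under some alternatives. Differentiated Lepr may be background in both genotypes, so its estimate near 0 does not show that the genotypes were alike. No overlap between the genotypes was found in 4 of the 9 genes, against 30.9% of all genes.

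**Figure D3:**
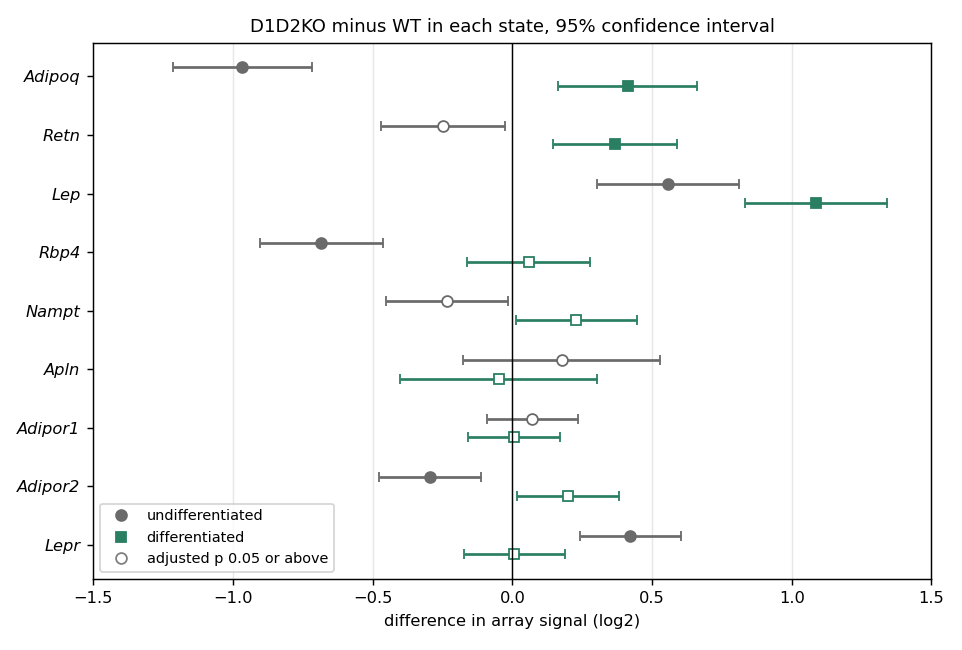
D1D2KO minus WT signal (log2, horizontal axis) in undifferentiated (circles) and differentiated cells (squares), with 95% confidence intervals of the limma fit and open symbols where the adjusted p was 0.05 or above. Adipoq lies at -0.97 before and 0.41 after differentiation, Rbp4 moves from -0.68 to 0.06, and Lep is above 0 in both states.

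The test of the difference between the differentiation responses asked which genes answered the inducers differently without the 2 enzymes. It called 3 of the 9 genes, all more positive in D1D2KO cells, where 1.46% of all genes were called (0.747% higher and 0.712% lower). Adipoq had a difference of 1.38 (SE 0.17; limma, adjusted p = 0.000501), Rbp4 of 0.74 (SE 0.15; adjusted p = 0.0161) and Retn of 0.62 (SE 0.15; adjusted p = 0.0484). The count ran from 1, without undifferentiated D1D2KO replicate 1, to 6, without WT differentiated replicate 3.

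Each of these differences is the sum of a gap at the start and a gap at the end. For Adipoq a start lower by 0.97 and an end higher by 0.41 make up the 1.38, but undifferentiated D1D2KO Adipoq may be near background, so the sizes of the start gap and of the 1.38 are uncertain. For Rbp4 a start lower by 0.68 contributed nearly all of the 0.74, since the ends differed by 0.06. For Retn neither gap dominated, at 0.25 below and 0.37 above. For Lep the difference in response of 0.53 did not pass (limma, adjusted p = 0.163), and since its start values cannot be told from background, neither that size nor the start gap can be taken as a measure of RNA.

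The calls differed in how they stood up to leaving out samples. Adipoq passed in every case (adjusted p from 6.70e-05 to 0.00277 over all alternatives, limma). Rbp4 failed without WT undifferentiated replicate 2 (adjusted p = 0.0513) or D1D2KO undifferentiated replicate 1 (adjusted p = 0.0579). Retn failed after centring (adjusted p = 0.0507) and without any 1 of 10 samples (adjusted p from 0.0638 to 0.141), and of the left-out samples only WT undifferentiated replicate 2 and WT differentiated replicate 3 kept the call.

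Among the genes that did not pass, Adipor2 stood nearest the threshold. Adipor2 had a difference of 0.49 (SE 0.12; limma, adjusted p = 0.0542), which passed after quantile normalization (adjusted p = 0.0428), among genes above the median signal (0.0180), with a trended and robust fit (0.0181), and without WT differentiated replicate 3 (0.0460) or D1D2KO differentiated replicate 3 (0.0384). Lepr had -0.42 (SE 0.12; adjusted p = 0.114), which passed after quantile normalization (-0.60, adjusted p = 0.0182) and among the brighter genes (adjusted p = 0.0415). Differentiated Lepr may be background in both genotypes, so the size of this difference is uncertain. Nampt had 0.46 (adjusted p = 0.153). Without WT differentiated replicate 3 both Nampt (0.60, adjusted p = 0.0113) and Lep (0.71, adjusted p = 0.00881) passed. Apln at -0.22 (adjusted p = 0.834) and Adipor1 at -0.07 (adjusted p = 0.911) did not pass under any alternative.

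Ordered by level, the groups of Adipoq ran from undifferentiated D1D2KO through undifferentiated and differentiated WT to differentiated D1D2KO, each step called (limma, adjusted p of 0.0295 or less). The top Adipoq step lost its call when some single samples were left out, and its lowest group may be near background. Retn, Rbp4, Nampt and Adipor2 had the same order as Adipoq. In them the lower step between the genotypes did not pass for Retn and Nampt, and the upper one did not pass for Rbp4, Nampt and Adipor2. Lep ran from undifferentiated WT through undifferentiated D1D2KO and differentiated WT to differentiated D1D2KO cells, each step called. The lowest Lep step lies among signals that may be background, and its call ended without D1D2KO undifferentiated replicate 1 or 3. The Lep step of 2.24 between undifferentiated D1D2KO and differentiated WT cells compared different genotypes and states. So did the Lepr step of 3.76 between differentiated D1D2KO and undifferentiated WT cells. For Apln only the step between the states passed, for Lepr the step between the differentiated groups did not pass and both higher steps did, and for Adipor1 no neighbouring groups differed by the test.

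The genes whose signals followed each of the 9 most closely over the 12 samples were found by Pearson correlation among all genes. For Adipoq they were the phospholipase Plaat3, its own receptor gene Adipor2 and haptoglobin Hp (r of 0.999 for each, rounded). For Retn they were Adig, Adhfe1 and Pparg (r from 0.998 to 0.999), and for Rbp4 the glycogen branching enzyme Gbe1, Fabp4 and Plaat3 (r of 0.998 to 0.999). Adipor2 was followed by the mitochondrial carbonic anhydrase Car5b, by Adipoq and by the thyrotropin receptor Tshr. Lep was nearest to the respiratory subunit Cox8b (r = 0.995), Fah and Mul1, 3 genes that were also higher in D1D2KO than in WT group means in both states. Nampt was nearest to Ndufb3, Echdc1 and Coq3.

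Lepr was nearest to the neuropeptide Y receptor Npy1r (r = 0.999), Pde8b and Egfl6, all of which lost signal in differentiation. Apln was nearest to Tlcd3b, Acer2 and Kctd21 (r from 0.977 to 0.978), and Adipor1 to Dtnb, Fgd1 and Ctss (r from 0.949 to 0.956). These correlations describe 12 points that share the 4 groups and their arrays, and most of each rests on the difference between the states.

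The partners of the adipokines were read from lists of known pathway genes, which were put together with earlier results of these data known. Their counts stand beside the shares of all genes that rose and fell, 14.7% and 19.4% in WT and 15.4% and 21.2% in D1D2KO cells. Of 15 measured genes of adiponectin assembly and signalling, 5 rose and 2 fell in WT and 6 rose and 2 fell in D1D2KO cells (medians 0.05 and 0.12). The falls became 1 without any 1 of 4 WT samples or any 1 of 3 D1D2KO samples. Ero1a, the oxidase that helps release folded adiponectin from the endoplasmic reticulum, had gains of 1.98 (SE 0.17) in WT and 2.98 (SE 0.17) in D1D2KO cells, and Gstk1, also known as DsbA-L and linked to adiponectin multimerization, of 1.69 and 2.02. The difference between the Ero1a responses, 1.00 (SE 0.24; limma, adjusted p = 0.0440), ended without any 1 of 10 samples. Ero1a began 0.67 lower in D1D2KO cells (limma, adjusted p = 0.0248), a call that ended without any 1 of 4 samples. In differentiated cells its genotype difference of 0.33 did not pass (limma, adjusted p = 0.187). Erp44, the chaperone that retains adiponectin, was at -0.12 in WT, which did not pass, and fell by 0.31 in D1D2KO cells (limma, adjusted p = 0.0205), a call that ended without undifferentiated replicate 1 or 2 or differentiated replicate 1 of D1D2KO cells. The coactivator Ppargc1a, downstream of both receptors, rose by 0.93 and 1.56, and was 0.62 higher in differentiated D1D2KO than WT cells (SE 0.13; adjusted p = 0.00560).

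Of 18 genes listed around the leptin receptor, which include the subunit Il6st of other cytokine receptors, 3 rose and 7 fell in WT. In D1D2KO cells 3 rose and 8 fell (medians -0.03 and -0.14). Stat5a gained 1.09 in WT and 0.88 in D1D2KO cells, and the phosphatase Ptpn1, which acts on Jak2, fell by 0.76 in WT and 0.72 in D1D2KO cells. Leprot, a neighbouring gene that shares its first exons with Lepr transcripts and limits the receptor at the surface, fell by 0.59 in WT and 0.97 (SE 0.08) in D1D2KO cells. The kinase Jak2 was 0.60 lower (SE 0.09; limma, adjusted p = 0.000437) and the cytokine receptor subunit Il6st 0.51 lower (adjusted p = 0.000337) in differentiated D1D2KO than in WT cells. Stat3, the main effector of the receptor, was at -0.15 in WT, which did not pass, and fell by 0.32 in D1D2KO cells (limma, adjusted p = 0.00557).

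Of 21 measured genes listed around retinol, 1 rose and 7 fell in WT cells, and 13 did not pass (median -0.04). Without WT differentiated replicate 2 or 3, 2 rose in WT. In D1D2KO cells 1 rose, 8 fell and 12 did not pass (median -0.10). The riser was the aldehyde dehydrogenase Aldh1a7, at 4.43 and 4.67. Whether it acts on retinaldehyde was not examined here. The retinaldehyde dehydrogenase Aldh1a2 fell by 1.10 and 1.60. The cytosolic retinoic acid binding protein Crabp2 fell by 0.63 in WT and 0.87 in D1D2KO cells. Crabp1 fell by 1.07 in D1D2KO cells and was at -0.28 in WT, which did not pass. Aldh1a1, another retinaldehyde dehydrogenase, was lower in D1D2KO cells by 0.74 (SE 0.09) before and 0.76 (SE 0.09) after differentiation.

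In NAD metabolism, around Nampt, 9 of 19 genes rose and 2 fell in WT, and 10 rose and 2 fell in D1D2KO cells (medians 0.29 and 0.33). The falls were 1 without WT differentiated replicate 1, or without D1D2KO undifferentiated replicate 3 or differentiated replicate 2. Aox1 rose by 1.72 and 1.71 and the nicotinamide methyltransferase Nnmt by 0.68 and 1.26, whereas the mitochondrial transhydrogenase Nnt fell by 0.99 and 1.04. Nnmt was 0.45 higher in differentiated D1D2KO than in WT cells (SE 0.09; limma, adjusted p = 0.00591). Nnt was lower in D1D2KO cells by 0.51 before differentiation (SE 0.10; limma, adjusted p = 0.00506). After differentiation it was lower by 0.56 (SE 0.10; adjusted p = 0.00117).

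Of 8 genes of the apelin and angiotensin systems, 2 rose and 3 fell in WT and 2 rose and 4 fell in D1D2KO cells. The apelin receptor Aplnr fell by 0.69 in WT and 0.92 (SE 0.10) in D1D2KO cells. It was 0.51 higher in D1D2KO than in WT cells before differentiation (limma, adjusted p = 0.00869), a call that ended without WT undifferentiated replicate 2. Angiotensinogen (Agt) rose by 4.20 and 4.25. Of 7 genes that encode candidate resistin partners or resistin-like proteins, 0 rose, 3 fell in WT and 4 in D1D2KO cells. Among the partners were Tlr4 (-0.71 and -0.67) and Cap1 (-0.37 and -0.62). The paralogs Retnla, Retnlb and Retnlg had mean signals of 2.86 to 3.25 in all groups, near the low end of the arrays.

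Of 15 genes of the C1q and TNF related family, to which adiponectin belongs, 1 rose in each genotype and 8 fell in WT and 10 in D1D2KO cells (medians -0.34 and -0.66), with C1qtnf3 at -2.23 and -2.88, C1qtnf7 at -1.66 and -1.63 and C1qtnf2 at -1.64 and -1.79. This list includes the 3 chains of complement C1q, which macrophages make. Of 9 paralogs of the adiponectin receptors, 2 rose and 1 fell in each genotype. Mmd rose by 2.01 and 2.61, Paqr9 by 1.85 and 2.00, and Paqr8 fell by 0.86 and 0.50.

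**Figure D4:**
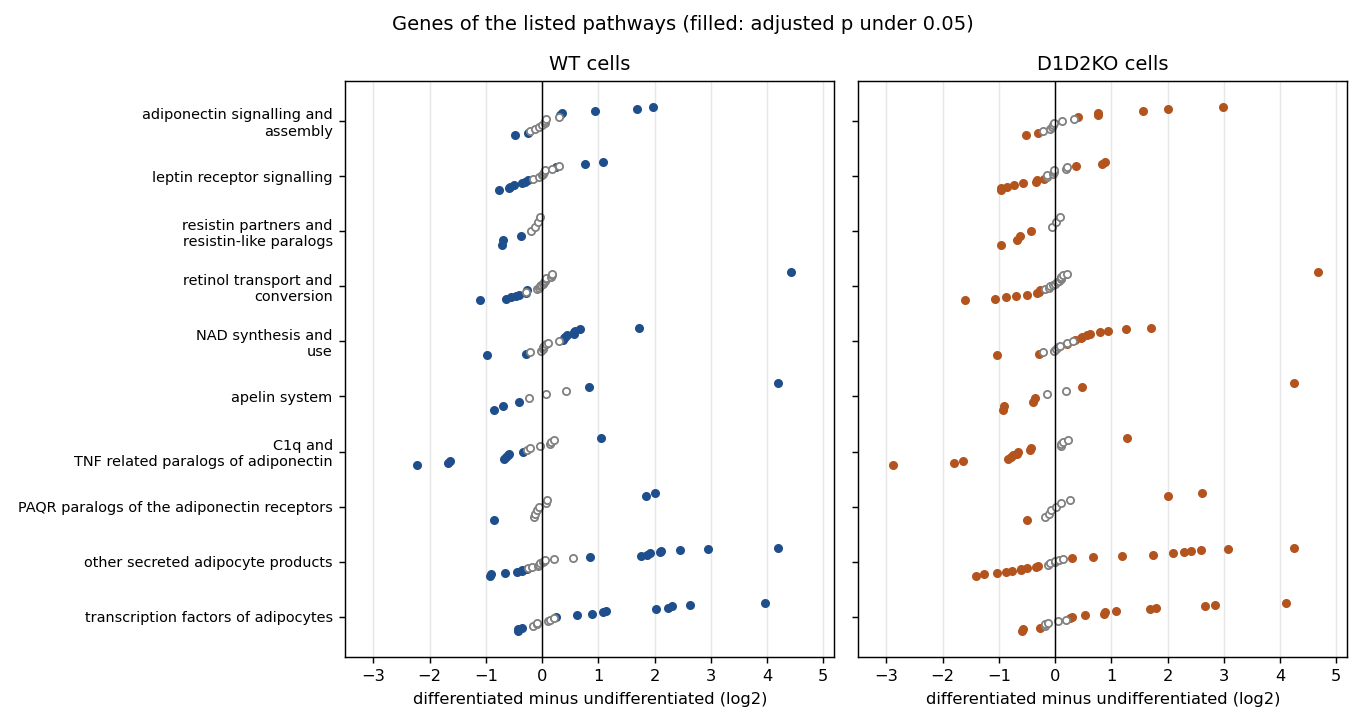
Differentiated minus undifferentiated signal (log2, horizontal axis) of each measured gene in 10 pathway lists, in WT (left) and D1D2KO cells (right). Filled points passed the test, and the point for Aldh1a7 at 4.43 and 4.67 stands alone in the retinol list.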

How the data were processed

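Per the labels, biotin-labelled total RNA from 12 samples was hybridised to a single-colour mouse array. The authors deposited 1 table of 35556 probe sets whose values, from 1.15 to 14.17, were taken as log2 signals normalized between arrays. The base was inferred from the maximum, which exceeds 11.09, the natural log of a 16-bit limit. The summary and normalization methods are not given in the sources used here, and no detection calls or scanner files were used, so low signals may be background. Column medians were 5.61 to 5.69.

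Probe sets with exactly 1 gene in the platform annotation (21789; 1621 had several and 12146 none) were kept, and 999 genes with several were read by the brightest on average, leaving 19938. A model of the 4 group means was fitted to all 12 samples with limma 3.58.1 in R 4.3.3 (lmFit, eBayes), with 5 two-sided contrasts, and checked on simulated data. No genes were removed for low signal. The number of arrays limits precision.

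The members, lists and tests were chosen with earlier results of these data known. From each pathway list the text could name up to 3 called genes of largest difference per contrast and the brightest uncalled one, and the 3 genes of highest Pearson correlation with each member. Levels quoted for the resistin paralogs, and the markers named in undifferentiated cells, were chosen after their values were seen. Replicate numbers did not pair samples in the main fit of any contrast, and served only in an alternative with a replicate block. In D1D2KO differentiation the deviations of same-numbered samples correlated at 0.101 to 0.176, above those of differently numbered samples (-0.147 to 0.0522). In the other comparisons of groups these ranges overlapped. Alternatives were centring, quantile normalization, averaging a gene's probe sets, a filter at the median signal, only the groups compared, a trended and robust fit, the replicate block and leaving out each sample. No build is named in the annotation, so gene coordinates are not given. Promoters are RefSeq's on GRCm38.p6.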

Additional observations from a re-analysis of the deposited data

Results flagged for a closer look

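In 3 of the 9 genes the response to differentiation differed between the genotypes by the interaction test of the limma fit. Adipoq rose more in D1D2KO than in WT cells by 1.38 (adjusted p = 0.000501), Rbp4 by 0.74 (adjusted p = 0.0161) and Retn by 0.62 (adjusted p = 0.0484). Undifferentiated D1D2KO Adipoq may be near background, so the size of 1.38 is uncertain. The Rbp4 call ended without WT undifferentiated replicate 2 or D1D2KO undifferentiated replicate 1. The Retn call ended after centring and without most single samples. In each of the 3 comparisons the D1D2KO mean was below the WT mean before differentiation and above it afterwards, although the Rbp4 values after differentiation and the Retn values before it overlapped. Groups of 3 samples are too small for a search for single deviating samples.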

How the results depend on the processing

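Of 841 values of the 9 genes under the alternatives, 780 kept their direction and their side of the threshold, 35 kept the direction but lost the call, 14 gained one and 12 changed sign. The sign changes were all among uncalled genotype differences in differentiated cells. Centring each array gave -0.0319 for Adipor1 and -0.0302 for Lepr, and quantile normalization gave 0.0366 for Apln and -0.0736 for Lepr. Leaving out single samples gave ranges of -0.0395 to 0.0514 for Adipor1, -0.0761 to 0.0847 for Lepr, -0.0434 to 0.1445 for Rbp4 and -0.1265 to 0.0468 for Apln.

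The number of the 9 genes called for the difference in response was 5 after quantile normalization and 5 among genes above the median signal. Leaving out samples gave 1 to 6 for the difference in response, 3 to 5 for undifferentiated and 1 to 3 for differentiated genotype comparisons. Over all genes, the undifferentiated genotype count of 1600 became 838 after quantile normalization, 881 among genes above the median signal, 2597 with only the groups compared, and 339 to 1967 without single samples, lowest without WT undifferentiated replicate 2. The differentiated count of 2726 became 1184 with only the groups compared and 1344 to 2822 without single samples, lowest without WT differentiated replicate 2. The count of 291 for the difference in response became 537 among genes above the median signal, 450 with a trended and robust fit, and 159 to 449 without single samples, lowest without WT undifferentiated replicate 1 and highest without WT differentiated replicate 3. For each of these shifts the cause was not tested. The member count of 5 was lowest without WT undifferentiated replicate 2 or D1D2KO undifferentiated replicate 1 or 3. With the replicate block the calls of the 9 genes were the same in all 5 contrasts (8, 9, 5, 3 and 3), as were their directions. The filter on signal left out Lep, and a fit of only the compared groups was not run for the difference in response. Low signals, those of undifferentiated Lep and differentiated Lepr among them, limit the sizes of those changes.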

Other observations

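Other proteins that adipocytes secrete moved in both directions. Of 26 measured, 9 rose and 7 fell in WT cells, and 10 rose and 10 fell in D1D2KO cells (medians 0.03 and 0.00, close to those of all genes). Of all genes 14.7% rose and 19.4% fell in WT, and 15.4% and 21.2% in D1D2KO cells. Lipocalin Lcn2 rose by 2.96 (SE 0.08) in WT and 3.08 (SE 0.08) in D1D2KO cells, and the lipoprotein lipase inhibitor Angptl4 by 2.45 and 2.59. In differentiated cells 3 of the 26 were higher and 8 lower in D1D2KO than in WT cells, against 6.25% and 7.42% of all genes. The 3 became 0 without WT replicate 2 or D1D2KO replicate 2 and 1 without WT replicate 3 or D1D2KO replicate 1. Rarres2, which encodes the adipokine chemerin, was lower by 1.13 (SE 0.09; limma, adjusted p = 1.11e-06), opposite to Adipoq, Retn and Lep. Its mean signal was 6.79 ± 0.06 (SD, n = 3) and 8.66 ± 0.13 in undifferentiated and differentiated WT cells, and 6.34 ± 0.17 and 7.53 ± 0.06 in D1D2KO cells. The difference between the Rarres2 responses was -0.68 (SE 0.13; limma, adjusted p = 0.0155), which ended without WT undifferentiated replicate 1. The chemokine Ccl2 was lower by 0.79 (SE 0.17). Vegfa was lower by 0.49 (SE 0.08; limma, adjusted p = 0.00158) in undifferentiated D1D2KO cells.

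Among 19 transcription factors of adipocytes 10 rose and 3 fell in WT, and 11 rose and 3 fell in D1D2KO cells. The WT falls were 1 without WT undifferentiated replicate 1 or WT differentiated replicate 3. The shares of all genes were 14.7% higher and 19.4% lower in WT, and 15.4% and 21.2% in D1D2KO cells. Pparg rose by 3.97 (SE 0.10) in WT and 4.10 (SE 0.10) in D1D2KO cells, Cebpa by 2.31 and 2.84, and the liver X receptor Nr1h3 by 2.63 and 2.66. In differentiated cells Cebpa was 0.46 higher (SE 0.10; limma, adjusted p = 0.00658) and Srebf1, the regulator of lipogenic genes, was 0.43 lower (SE 0.09; adjusted p = 0.00843) in D1D2KO than in WT cells. The glucocorticoid receptor Nr3c1, at -0.09 and -0.13, did not pass in differentiation.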
